A study of Mus musculus with 10 samples.

Results

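The genes described are those that copy DNA in S phase, from the proteins that mark replication origins to the enzymes that make the DNA building blocks. They were chosen by name, as a list of 45 genes of known role, with earlier results of these data known, so their shares beside those of all genes are descriptions. All 45 were among the 14450 genes of the deposited table, each with 1 row. The RNA came from mature B cells of the bone marrow of Chat-GFP mice, where GFP reports activity of Chat, the gene of the enzyme that makes acetylcholine. All animals were at steady state, that is, unchallenged, and the cells were sorted by flow cytometry into Chat+ (5 libraries) and Chat- (5 libraries). Both groups thus share strain, condition and tissue and differ in the reporter gate. Age and sex are not given in the labels. Nor do they say that each library is a separate animal, so the p-values reflect library-to-library spread, which may be technical.

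Before a cell copies its DNA, the origin recognition complex, with Cdc6 and Cdt1, loads rings of the 6 proteins Mcm2 to Mcm7 onto each replication origin. Cdc45 and the GINS complex turn the ring into an active helicase. Primase and the DNA polymerases then copy the strands, held by the sliding clamp PCNA, while chromatin assembly factors rebuild the nucleosomes behind the fork. Many of these genes are targets of the E2F transcription factors, which cyclin E and its kinase release from the retinoblastoma protein at the entry into S phase. Most mature B cells rest outside the cycle, whereas large precursor B cells of the marrow and activated B cells divide.

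The values are log2 counts per 1000000 counts (CPM) with a small offset of 0.1148 CPM added, and levels are given here as CPM with that offset removed. Depth was estimated at 21530000 to 30060000 reads per library, by a method whose preset window limits how far libraries could differ. Chat- replicate 4 stood apart: mitochondrial transcripts made up 11.9% of its CPM against 2.27% to 3.85% in the other 9 libraries, and 1213 of its genes sat at the table's floor, where the others had 62 to 682. All 7 B lineage markers examined (Cd79a, Cd79b, Ms4a1, Pax5, Ebf1, Cd22 and Blk) were present in every library, with summed levels of 8154 to 9152 CPM in Chat+ and 8827 to 9224 CPM in Chat-.

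Most of the replication machinery lay slightly higher in Chat+ than in Chat- B cells, by amounts that single genes could not separate from the spread between libraries. The difference (Chat+ minus Chat-, log2 CPM) was above 0 for 41 of the 45 genes, against 57.0% of all listed genes, with a median of 0.22 against 0.04 over all listed genes. Under the limma test adjusted over all genes, 0 of the 45 passed the threshold of 0.05, where 0.00692% of all genes did. At an unadjusted p under 0.05, 8 of the 45 were higher in Chat+ (17.8%, against 3.49% of all genes) and 0 were lower (against 1.01%). These 8 were Rrm2, Ccne1, Uhrf1, Rrm1, Mcm10, Pola1, Mcm6 and Pcna. For 4 genes, Rrm2, Rrm1, Ccne1 and Cdc6, every Chat+ library lay above every Chat- library (8.89%, against 1.12% of all genes), and for 0 every Chat+ library lay below (against 0.304%). In these bulk libraries, more cells in S phase and more transcript per cell cannot be told apart.

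Part of this shift came with 1 library. Without Chat- replicate 4, the difference was above 0 for 34 of the 45 (75.6%, against 49.6% of all genes) and the median difference was 0.13. At an unadjusted p under 0.05, 10 were then higher (against 5.36% of all genes) and 0 lower (against 1.97%), and 5 had separated groups (against 2.35%). With the libraries rescaled by the median of their gene ratios, 38 of the 45 were higher (against 48.9% of all genes), with a median of 0.18 (all genes -0.0061); Orc1, Rfc1 and Rpa1 then changed sign. With library quality weights, 2 of the 45, Rrm2 (limma adjusted p = 0.0040) and Uhrf1 (0.0495), passed over all genes, where 0.727% of all genes did.

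**Figure D1:**
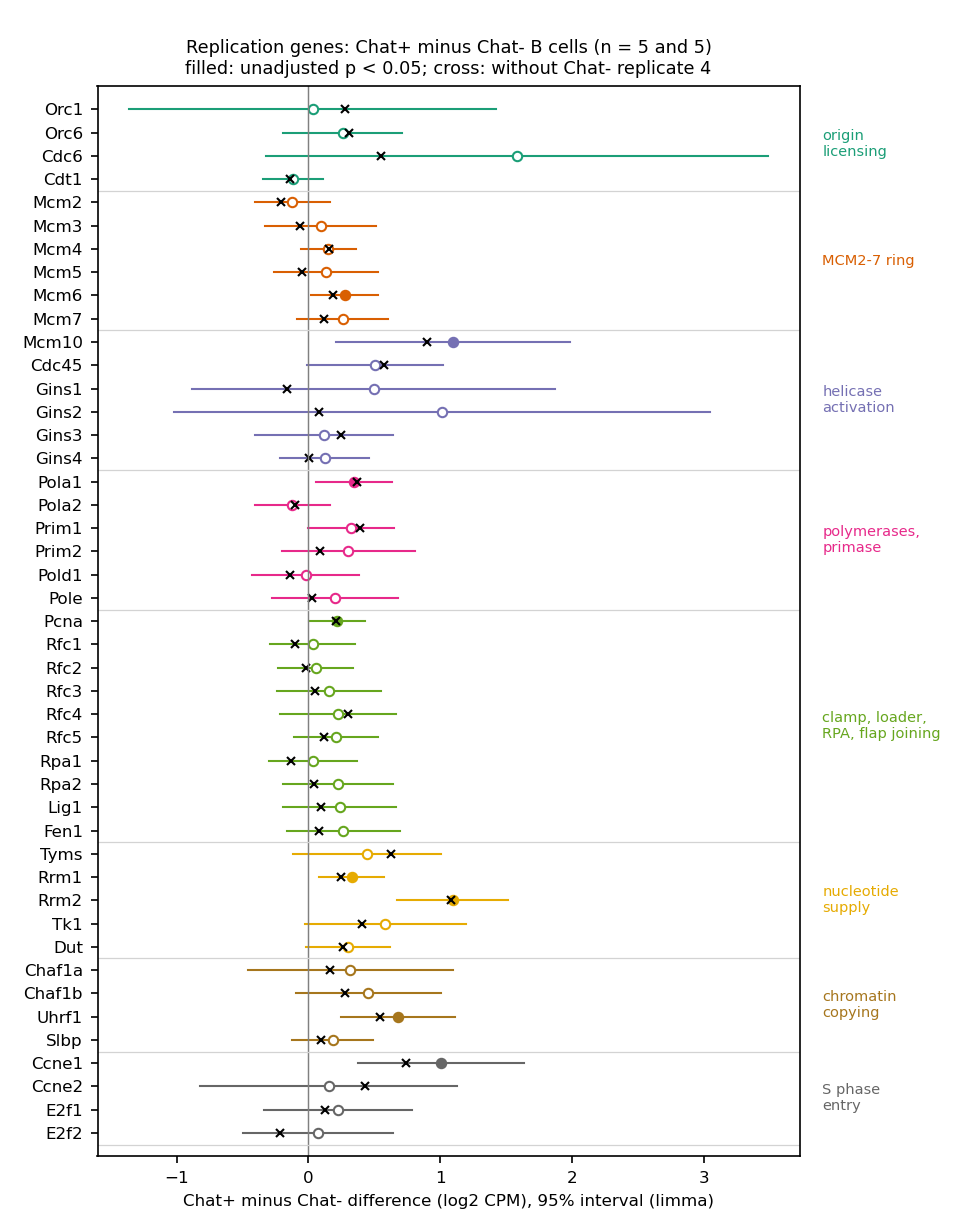
Chat+ minus Chat- difference (log2 CPM) of each of the 45 replication genes with its 95% interval from limma, coloured by role, filled where the unadjusted p was under 0.05. Crosses give the difference without Chat- replicate 4; most intervals include 0, and the 8 filled genes run from 0.22 for Pcna to 1.10 for Mcm10.

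Since E2F control is what ties these genes together in textbooks, their promoters were searched for its recognition sequence. RefSeq promoters (GRCm38.p6, from 250 bases before to 50 after a transcription start) were matched for 37 of the 45 genes, with 43 promoters in all; Gins1, Gins2, Gins4, Mcm4, Pole, Prim2, Rfc2 and Ccne2 were not matched. The E2F motif was taken as TTTCCCGC, TTTCGCGC, TTTGCCGC or TTTGGCGC on either strand, and the CCAAT box, bound by the factor NF-Y, as CCAAT on either strand. The E2F motif was present in 14 of the 43 promoters (32.6%), against 2.26% of all 32851 promoters of the same length. The CCAAT box was present in 26 (60.5%), against 37.4% of all. Among 28 promoters of mitosis genes, 3.57% held the E2F motif and 82.1% the CCAAT box. The replication promoters were richer in G and C than promoters at large, with a median of 61.3% against 52.7%.

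The promoters of 4 of the 8 genes named above are shown, the 2 with the smallest p, which have no E2F match (Rrm2 and Ccne1), and 2 with a match (Mcm6 and Pola1), each as the 200 bases before the start on the gene's strand. Capitals mark the E2F motif and the CCAAT box on either strand. They lie at chr12:24708054-24708253 (Rrm2, plus strand), chr7:38107491-38107690 (Ccne1, minus strand), chr1:128359706-128359905 (Mcm6, minus strand) and chrX:93632156-93632355 (Pola1, minus strand) of GRCm38.p6.
Rrm2: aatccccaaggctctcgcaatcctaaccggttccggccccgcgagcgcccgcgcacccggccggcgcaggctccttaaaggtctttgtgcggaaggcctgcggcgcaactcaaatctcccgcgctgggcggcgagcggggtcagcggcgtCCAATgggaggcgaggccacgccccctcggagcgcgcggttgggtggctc
Ccne1: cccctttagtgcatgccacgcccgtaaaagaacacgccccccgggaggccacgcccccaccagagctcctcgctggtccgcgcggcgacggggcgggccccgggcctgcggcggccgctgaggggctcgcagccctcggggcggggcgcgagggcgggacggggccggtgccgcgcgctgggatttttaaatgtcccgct
Mcm6: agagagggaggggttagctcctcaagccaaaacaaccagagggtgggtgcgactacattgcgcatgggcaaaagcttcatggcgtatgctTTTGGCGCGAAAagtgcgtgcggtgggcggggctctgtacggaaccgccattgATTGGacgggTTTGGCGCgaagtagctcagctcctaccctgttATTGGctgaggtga
Pola1: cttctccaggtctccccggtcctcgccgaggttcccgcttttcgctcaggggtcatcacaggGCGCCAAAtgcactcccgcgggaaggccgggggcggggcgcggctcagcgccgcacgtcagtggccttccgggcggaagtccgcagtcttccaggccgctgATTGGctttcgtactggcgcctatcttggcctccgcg
Mcm6 holds 3 E2F matches, beginning 110, 106 and 47 bases before the start, of which the first 2 overlap on opposite strands. Pola1 has 1 match, beginning 138 bases before the start, and Rrm2 shows a single CCAAT box, beginning 50 bases before the start. The 14 genes with an E2F match had a median difference of 0.14, with 3 at an unadjusted p under 0.05. The 23 without one had a median of 0.27, with 5 at that level. A match is a string of letters, not a bound site, and the absence of a match says only that these letters are not in the window.

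All 5 genes that supply DNA building blocks were higher in Chat+, with differences of 0.30 to 1.09. Their median was 0.44 with all libraries and 0.40 without Chat- replicate 4, whereas that of the helicase activation genes went from 0.50 to 0.16. Rrm2 encodes the small, S phase-restricted subunit of ribonucleotide reductase, which makes deoxyribonucleotides, and lies on chromosome 12 at 24708241 to 24714146 of GRCm38. It measured 46.1, 33.8, 56.6, 32.9 and 27.1 CPM in Chat+ replicates 1 to 5 and 18.3, 19.2, 14.9, 17.1 and 19.6 CPM in Chat- replicates 1 to 5. The Chat- libraries were tightly grouped and the Chat+ libraries widely spread above them. The fold difference was 2.13 (95% interval 1.60 to 2.85; unadjusted p = 9.5e-05, limma adjusted p = 0.11). This was the smallest p of the 45, and 12.0% of the 31-base words of Rrm2 also occur in transcripts of other genes.

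Rrm1, the large subunit of the same enzyme, differed far less. Its levels were 74.6, 78.7, 89.2, 77.7 and 89.6 CPM in Chat+ against 74.5, 70.3, 62.4, 52.2 and 68.8 CPM in Chat-. The groups were separated by the narrow gap between both replicates 1, and the difference was 0.33 ± 0.11 (SE; limma adjusted p = 0.87). Thus 1 subunit of the pair differed about 2.13-fold and the other 1.25-fold (interval 1.06 to 1.49), intervals that do not overlap; the difference between the subunits was not tested. Tk1 (thymidine kinase, the salvage route to thymidine nucleotides), Tyms (thymidylate synthase) and Dut (which removes dUTP) had differences of 0.58, 0.44 and 0.30, all with intervals that include 0. Without Chat- replicate 4, Tyms was the clearest of the 3 (difference 0.62, unadjusted p = 0.015), since that library held more Tyms (14.8 CPM) than the other Chat- libraries (6.42 to 8.99 CPM).

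Among the genes of S phase entry, cyclin E1 stood out. Ccne1, on chromosome 7 at 38097984 to 38107534, encodes the cyclin that activates Cdk2 at the start of S phase. It measured 12.8, 12.8, 11.1, 9.71 and 12.1 CPM in Chat+ and 7.97, 6.81, 7.47, 2.69 and 5.69 CPM in Chat-. Every Chat+ library was above every Chat- library, including Chat+ replicate 5, which was low for most of the other genes. The fold difference was 2.01 (interval 1.30 to 3.10; unadjusted p = 0.0044, limma adjusted p = 0.55), and the difference of 1.005 became 0.74 without Chat- replicate 4 (unadjusted p = 0.0017). Ccne2, its close relative, averaged 4.34 ± 1.31 CPM in the Chat+ and 4.46 ± 2.70 CPM in the Chat- libraries (SD, n = 5), and 17.4% of its exonic bases overlap a gene on the opposite strand, Ints8.

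The activating E2F genes were not separated. E2f1 measured 15.8, 16.3, 10.7, 11.4 and 6.40 CPM in Chat+ and 10.8, 10.7, 10.5, 7.57 and 10.1 CPM in Chat-, with a difference of 0.22 (interval -0.34 to 0.79). E2f2, which restrains proliferation of lymphocytes as well as activating targets, was among the higher genes per length of the whole list. Its level was 23.3 CPM per kilobase of exon in both groups. It measured 150, 118, 97.5, 108 and 94.9 CPM in Chat+ and 129, 140, 133, 48.3 and 118 CPM in Chat-. Chat- replicate 4 lay far below the other 9 libraries, and the difference of 0.07 turned to -0.21 without it.

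Of the genes that copy chromatin along with DNA, Uhrf1 differed the most. Uhrf1 reads half-methylated DNA behind the fork and recruits the maintenance methyltransferase. It lies on chromosome 17 at 56303321 to 56323486 and measured 48.6, 41.7, 36.8, 41.1 and 27.0 CPM in Chat+ and 27.1, 30.6, 21.4, 16.3 and 27.0 CPM in Chat-. Chat+ replicates 1 to 4 exceeded every Chat- value, and replicate 5 fell inside the Chat- range. The fold difference was 1.60 (interval 1.19 to 2.16; unadjusted p = 0.0048, limma adjusted p = 0.56), with 24.2% of the 31-base words of Uhrf1 shared with other genes. Chaf1b and Chaf1a, subunits of the CAF-1 histone chaperone, had differences of 0.45 and 0.32, and Slbp, which binds the stem-loop of histone mRNAs, 0.18. Chaf1b measured 9.71, 7.64, 7.02, 8.16 and 6.75 CPM in Chat+ and 7.33, 5.94, 6.89, 3.44 and 5.64 CPM in Chat-, with overlap. Of the exonic bases of Chaf1a, 52.5% overlap Ubxn6 on the opposite strand.

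**Figure D2:**
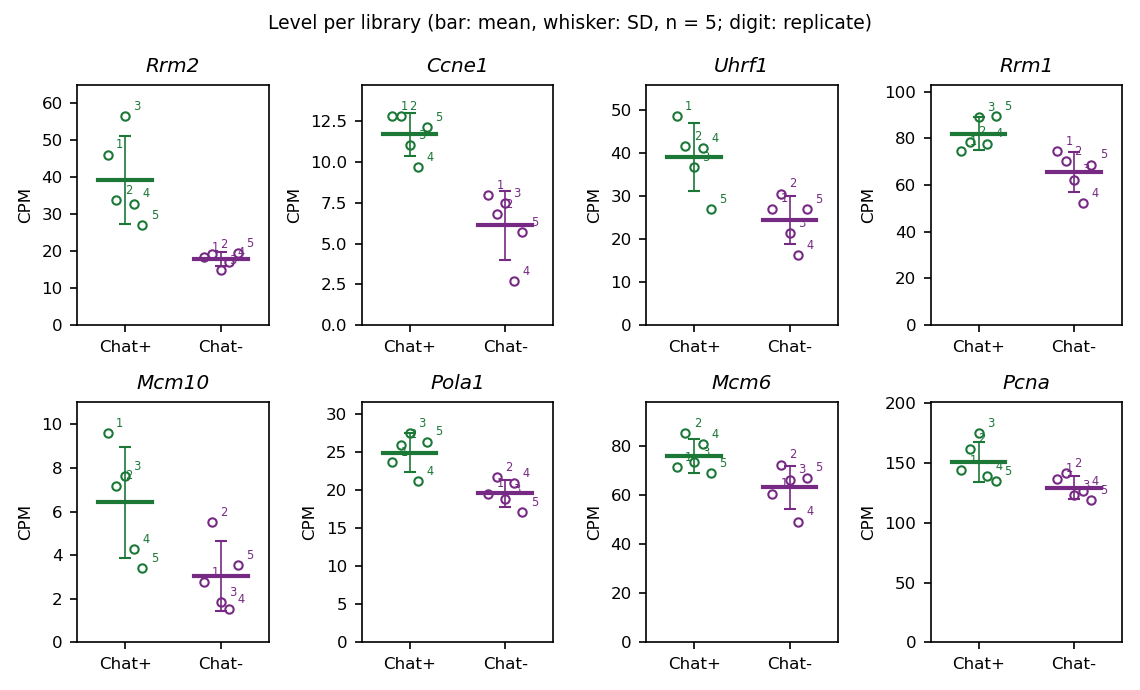
CPM in each library (circles, digits give the replicate) of the 8 replication genes with an unadjusted p under 0.05, with the mean (bar) and SD (whisker) of 5 libraries a group. Groups are apart for Rrm2, Ccne1 and, by a narrow gap, Rrm1, and overlap in the other 5.

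Among genes that turn the loaded ring into a moving helicase, all 6 were higher in Chat+ (differences of 0.12 to 1.10). Mcm10, which helps to start unwinding, measured 9.60, 7.20, 7.64, 4.28 and 3.41 CPM in Chat+ and 2.76, 5.51, 1.85, 1.53 and 3.54 CPM in Chat-. Chat+ replicates 4 and 5 lay within the Chat- range, and the difference was 1.10 ± 0.41 (SE; unadjusted p = 0.020, limma adjusted p = 0.98). Cdc45, the helicase cofactor that joins the ring with GINS, measured 8.96, 8.85, 8.59, 8.61 and 5.08 CPM in Chat+ and 5.21, 5.77, 5.25, 6.74 and 4.77 CPM in Chat-. The first 4 Chat+ libraries were even, while replicate 5 was inside the Chat- range, and the difference was 0.50 (unadjusted p = 0.055).

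The GINS genes gave no shared pattern. Gins1 and Gins2 had fitted differences of 0.49 and 1.01, but these rested on Chat- replicate 4, where Gins1 was at 0.372 CPM and Gins2 was listed at 0. Without that library the differences were -0.17 and 0.08. Gins3 and Gins4, with differences of 0.12 each, had intervals of -0.40 to 0.64 and -0.22 to 0.46. Of the exonic bases of Gins2, 67.3% overlap Gse1 on the opposite strand.

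The MCM2-7 ring itself hardly differed between the groups. Of the 6 genes, 5 were higher in Chat+ and 1 (Mcm2) lower, with differences of -0.12 to 0.27, and without Chat- replicate 4 the count was 3 of 6. Mcm6 had the smallest p, with 71.5, 85.2, 73.3, 80.6 and 68.8 CPM in Chat+ and 60.6, 72.4, 66.3, 49.1 and 67.1 CPM in Chat-. The groups overlapped through Chat- replicate 2, and the fold difference was 1.21 (interval 1.01 to 1.44; unadjusted p = 0.039, limma adjusted p = 0.999). Mcm7 measured 87.8, 83.2, 81.7, 85.4 and 65.1 CPM in Chat+ and 77.1, 84.3, 69.8, 45.1 and 65.5 CPM in Chat-, with overlap (difference 0.26, interval -0.08 to 0.61), and shares 26.8% of its 31-base words with other genes. Mcm2 measured 50.2, 51.9, 46.2, 52.0 and 38.9 CPM in Chat+ and 48.2, 58.2, 57.9, 40.9 and 55.9 CPM in Chat-, a difference of -0.12 (interval -0.41 to 0.16). Mcm3, Mcm4 and Mcm5 had differences of 0.09, 0.15 and 0.13.

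Per kilobase of exon, 5 of the ring genes, whose proteins assemble in equal numbers, were at 16.3 to 22.3 CPM per kilobase in Chat+ and 13.5 to 20.1 in Chat-. Mcm2 lay below them at 6.88 and 7.51, dividing by a length of all annotated exons that is the longest of the 6 (6956 bases).

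Origin licensing genes were mixed. Cdc6, the loader ATPase, measured 5.06, 7.53, 6.91, 5.55 and 4.85 CPM in Chat+ and 4.04, 4.79, 3.73, 0 and 3.49 CPM in Chat-. The groups did not overlap, though the lowest Chat+ and the highest Chat- library were close. Since Chat- replicate 4 was listed at 0, the fitted difference of 1.58 depends on the offset, and without that library it was 0.55 (unadjusted p = 0.041). Cdt1, the partner of Cdc6 in loading, was not higher: 64.8, 70.3, 78.0, 86.3 and 64.2 CPM in Chat+ against 76.0, 76.2, 86.1, 74.3 and 80.5 CPM in Chat- (difference -0.12, interval -0.35 to 0.11). Orc6, a subunit of the origin recognition complex, measured 16.2, 24.4, 22.6, 19.7 and 11.8 CPM in Chat+ and 16.6, 16.3, 14.2, 17.7 and 12.5 CPM in Chat-. Its Chat+ libraries lay on both sides of the Chat- range. Orc1, its largest subunit, was near the detection limit, with 0.271 to 2.08 CPM in Chat+ and 0.200 to 1.76 CPM in Chat-.

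The polymerases and primase differed within the same small range. Pola1, the catalytic subunit of the primase-coupled polymerase alpha, measured 23.6, 26.0, 27.5, 21.1 and 26.4 CPM in Chat+ and 19.5, 21.6, 18.8, 20.9 and 17.1 CPM in Chat-. The ranges met only at Chat+ replicate 4 and Chat- replicate 2, and the fold difference was 1.27 (interval 1.04 to 1.55; unadjusted p = 0.023, limma adjusted p = 0.999). Pola2, the regulatory subunit of the same polymerase, was not higher, with 41.0, 39.8, 39.6, 42.6 and 28.5 CPM in Chat+ and 40.1, 44.1, 43.8, 43.4 and 35.6 CPM in Chat- (difference -0.12). Prim1, the catalytic primase subunit, measured 23.5, 27.1, 23.8, 23.7 and 19.5 CPM in Chat+ and 15.7, 20.5, 19.4, 22.6 and 16.1 CPM in Chat-. Of its Chat+ libraries only replicate 5 lay within the Chat- range, and the difference was 0.32 (unadjusted p = 0.055); that of Prim2 was 0.30. Pold1, the catalytic subunit of the lagging-strand polymerase delta, measured 146, 140, 111, 128 and 77.3 CPM in Chat+ and 129, 148, 134, 86.8 and 109 CPM in Chat-, ranges that mostly coincided (difference -0.02, interval -0.43 to 0.38). Pole, of the leading-strand polymerase epsilon, had a difference of 0.20 (interval -0.28 to 0.68).

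Neither the sliding clamp nor its loader was separated between groups. Pcna measured 144, 162, 175, 139 and 135 CPM in Chat+ and 137, 141, 123, 126 and 119 CPM in Chat-, a fold difference of 1.16 (interval 1.003 to 1.35; unadjusted p = 0.046, limma adjusted p = 0.999). The groups overlapped in 2 Chat+ and 2 Chat- libraries, and the unadjusted p was 0.077 without the mean-variance trend, 0.060 with library quality weights and 0.087 with median-of-ratios scaling. Of its 31-base words, 23.3% occur in other genes. All 10 genes of the clamp, its loader, single-strand binding and flap joining were above 0 (0.03 to 0.27), but only 7 were without Chat- replicate 4. The loader genes Rfc1 to Rfc5 had differences of 0.03 to 0.22. Rfc5 measured 25.4, 28.7, 27.1, 23.8 and 21.5 CPM in Chat+ and 25.4, 22.8, 23.0, 17.0 and 21.6 CPM in Chat-, with overlap. Rpa1, the large subunit of the single-strand binding protein, measured 162, 159, 149, 149 and 158 CPM in Chat+ and 173, 167, 180, 96.0 and 162 CPM in Chat-. Chat- replicate 4 was thus the 1 library far from the others. Fen1 and Lig1, which trim and seal Okazaki fragments, had differences of 0.27 and 0.24 with intervals that include 0. For Fen1, 78.8% of the exonic bases overlap the antisense gene Gm10143.

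**Figure D3:**
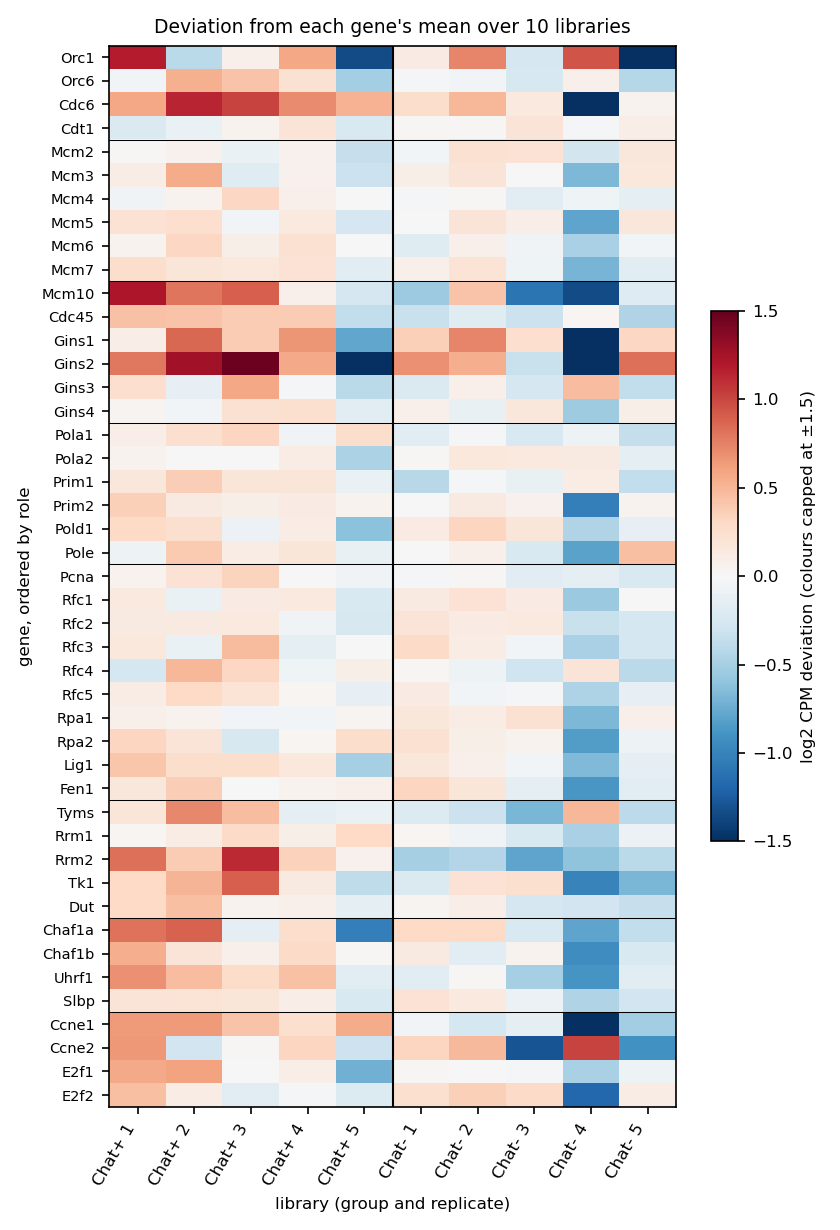
Deviation of each replication gene (rows, by role) in each library (columns) from its mean over 10 libraries, in log2 CPM, red above and blue below. Chat- replicates 3, 4 and 5 and Chat+ replicate 5 are below the mean for 29, 36, 32 and 32 genes respectively. Chat- replicate 4 and Chat+ replicate 5 are the lowest library of their group for 31 and 35 genes respectively.

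By library, the lowest values within each group gathered in 2 libraries, and in part this held over all genes. Chat+ replicate 5 was the lowest Chat+ library for 35 of the 45 (77.8%, against 33.2% of all genes with a single lowest library). Chat- replicate 4 was the lowest Chat- library for 31 (68.9%, against 45.1%) and the lowest of all 10 for 26 (57.8%, against 33.6%). The median deviation from each gene's own mean was 0.13 to 0.26 in Chat+ replicates 1 to 4 and -0.17 in Chat+ replicate 5. In Chat- it was 0.03, 0.10, -0.07, -0.49 and -0.16 in replicates 1 to 5. Chat+ replicate 5 thus lay among the Chat- libraries, with 32 of the 45 genes below their own mean, as in Chat- replicate 5 (32), against 36 in Chat- replicate 4. Over all genes the median deviation was 0.05 to 0.10 in Chat+ replicates 1 to 4, -0.02 in Chat+ replicate 5, -0.12 in Chat- replicate 4 and -0.03 to 0.06 in the other Chat- libraries. Both libraries were also left out together. Since they were picked after their low values for these same genes were seen, the following values only describe the other 8 libraries. With Chat+ replicate 5 and Chat- replicate 4 both left out, 39 of the 45 were above 0 (against 53.4% of all genes), the median difference was 0.22, and 16 were higher at an unadjusted p under 0.05 (against 5.59% of all genes). Of these, Rrm2 was under the threshold over all genes (limma adjusted p = 0.027).

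Differences were also set against level, with no test between levels. Ranked by mean level over all libraries in CPM per kilobase of exon, the lowest 15 (0.297 to 3.50) had a median difference of 0.44, the middle 15 (3.83 to 13.5) one of 0.24 and the highest 15 (14.9 to 58.4) one of 0.12. All listed genes in the same level ranges had medians of 0.09, 0.02 and 0.02. Without Chat- replicate 4, where Cdc6, Gins1 and Gins2 of the lowest 15 were at or near 0, the medians of the replication genes were 0.28, 0.25 and -0.02, so that those of the lowest and middle genes were close. Rpa1, Pold1, Cdt1 and E2f2, all with differences near 0, were thus well expressed in both sorted populations. Mcm10, Cdc6 and Ccne1 were among the lowest 15 and Rrm2 among the middle 15. Of the 8 genes higher at an unadjusted p under 0.05, 3 were among the lowest 15, 3 among the middle 15 and 2 (Mcm6 and Pcna) among the highest 15.

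**Figure D4:**
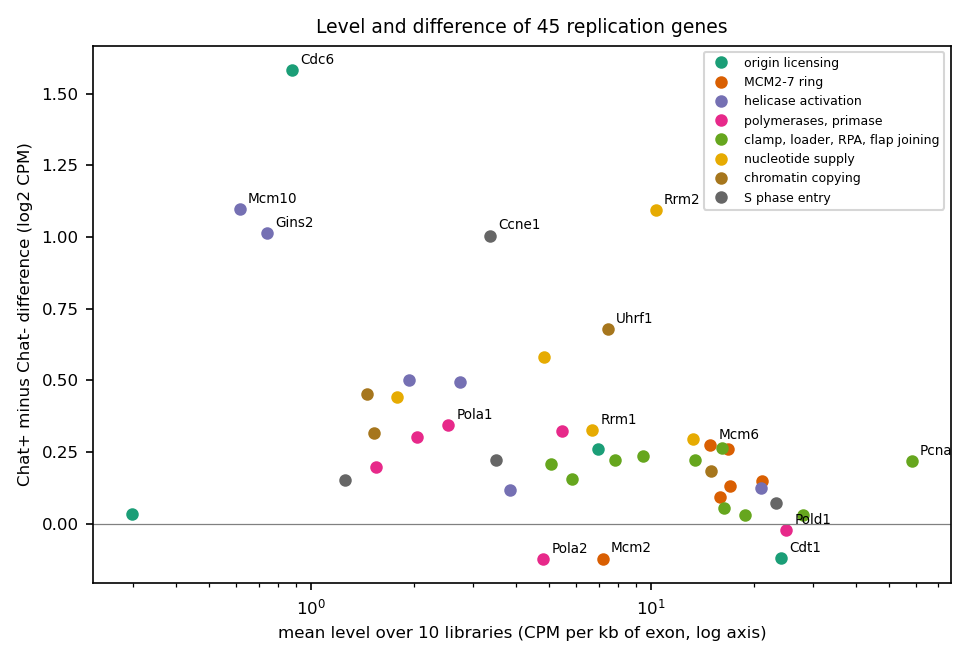
Chat+ minus Chat- difference (log2 CPM) of the 45 replication genes against their mean level over 10 libraries (CPM per kilobase of exon, log axis), coloured by role. The 4 genes below 0 (Cdt1, Mcm2, Pola2 and Pold1) are at middle and high levels, and Cdc6 and Gins2, each listed at 0 in Chat- replicate 4, are among the 15 lowest.

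Other genes of DNA replication, from lists that do not overlap with the 45, had medians nearer to that of all genes (0.04); the difference between lists was not tested. Of 36 rows for other replication factors, 24 were above 0 (66.7%, against 57.0% of all genes; median 0.08), and 0 passed over all genes, with 4 higher (11.1%, against 3.49%) and 0 lower at an unadjusted p under 0.05. The 36 rows stand for 35 genes, since Chtf8 was listed more than once, with differences of opposite sign (-0.49 and 0.82). The smallest p belonged to Clspn, the checkpoint mediator claspin (11.2 ± 4.41 against 4.78 ± 2.07 CPM, SD, n = 5), Dbf4, the activator of the Cdc7 kinase (22.1 ± 1.76 against 17.0 ± 3.72 CPM), and Gmnn, the inhibitor of Cdt1 (15.0 ± 3.57 against 9.54 ± 3.40 CPM). Of 21 other genes of nucleotide supply and chromatin copying, 18 were above 0 (85.7%, median 0.11), with 1 at an unadjusted p under 0.05 (4.76%, near the 3.49% of all genes). That was the PCNA-binding factor gene Pclaf (31.1 ± 7.82 against 17.6 ± 3.96 CPM, unadjusted p = 0.0022, limma adjusted p = 0.42). Hells and Rbbp4 followed with differences of 0.40 and 0.12.

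Genes that control the step from G1 into S were mixed, with 24 of 33 above 0 (72.7%, against 57.0% of all genes; median 0.06) and 0 past the threshold over all genes. At an unadjusted p under 0.05, 6 were higher (18.2%, against 3.49%) and 1 lower. E2f8, a repressor of E2F targets that is itself made in S phase, measured 9.46 ± 1.84 against 4.52 ± 0.896 CPM (difference 1.04, limma adjusted p = 0.29). Ccna2, the cyclin of S phase and G2, had 32.2 ± 11.2 against 14.9 ± 4.81 CPM, and Tfdp1, the partner of the E2F proteins, 33.4 ± 4.64 against 24.0 ± 1.69 CPM.

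Genes of mitosis, the later step of the same cycle, are given for comparison. All 30 were higher in Chat+, with a median difference of 0.89, and 22 were so at an unadjusted p under 0.05 (73.3%, against 3.49% of all genes), with 0 past the threshold over all genes. The smallest p belonged to Mki67 (111 ± 28.9 against 45.8 ± 8.81 CPM), Nusap1 (22.9 ± 5.85 against 8.77 ± 1.85 CPM) and Tpx2 (26.2 ± 8.9 against 8.99 ± 2.35 CPM). Without Chat- replicate 4 their median was 0.88, while that of the replication genes went from 0.22 to 0.13. Median deviations of the mitosis genes were 0.43 to 0.87 in Chat+ replicates 1 to 4, -0.23 in Chat+ replicate 5 and -0.78 to -0.23 in Chat-. The difference between both lists was not tested.

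**Figure D5:**
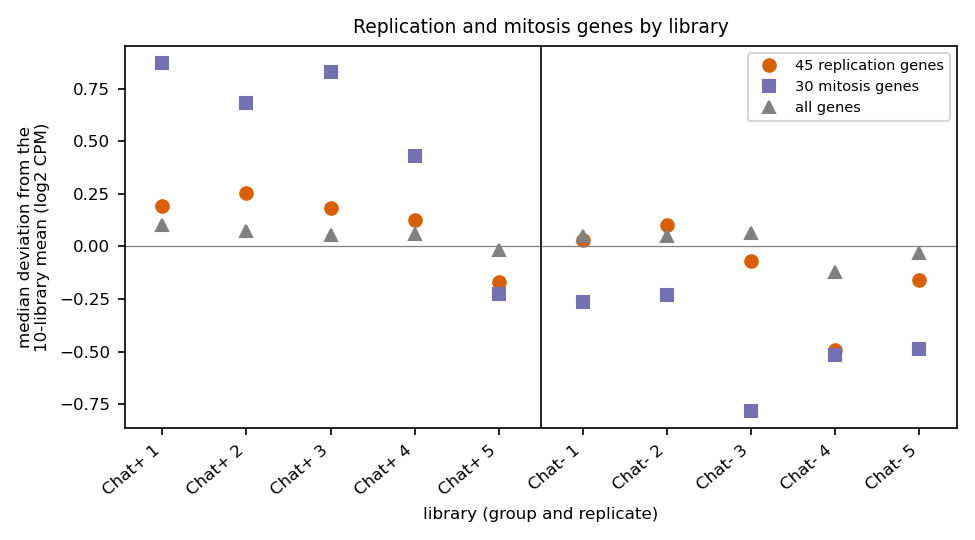
Median deviation (log2 CPM) from the 10-library mean of the 45 replication genes (circles), 30 mitosis genes (squares) and all 14450 genes (triangles) in each library. Chat+ replicates 1 to 4 are highest for both lists, Chat+ replicate 5 is below the other Chat+ libraries for both, and Chat- replicate 4 is lowest for the replication genes and for all genes.

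Markers of other B lineage stages were measured beside these values. For precursor B cells, 6 of 10 markers were among the listed genes (Vpreb1, Rag1, Dntt, Il7r, Kit and Sox4), and their sum was lower in Chat+ (8.48 to 22.3 CPM) than in Chat- (23.7 to 32.4 CPM), without overlap. Most of that sum was Sox4, with 5.89 to 17.6 CPM in Chat+ and 17.6 to 23.2 CPM in Chat-. The markers did not all go 1 way: at an unadjusted p under 0.05, Rag1 (1.05 ± 0.659 against 4.74 ± 1.92 CPM, SD, n = 5) and Sox4 (13.9 ± 4.73 against 20.6 ± 2.63 CPM) were lower in Chat+ and Kit (1.11 ± 0.716 against 0.362 ± 0.436 CPM) was higher. Vpreb1, Dntt and Il7r were at 0 in at least 1 library. Plasma cell markers (8 of 9 listed) summed to 407 to 686 CPM in Chat+ and 354 to 431 CPM in Chat-, with the highest sum in Chat+ replicate 5, the Chat+ library lowest in replication genes. Their differences were above 0 for 4 and below 0 for 4. At an unadjusted p under 0.05, 3 of the 8 were higher in Chat+ (37.5%, against 3.49% of all genes) and 0 lower. These were Jchain (97.0 ± 85.6 against 22.7 ± 9.40 CPM), Mzb1 (182 ± 24.1 against 132 ± 40.5 CPM) and Derl3 (4.23 ± 1.66 against 1.68 ± 0.947 CPM). Derl3 and Slpi were at 0 in at least 1 library. Germinal centre markers (5 of 7 listed) summed to 83.2 to 132 CPM in Chat+ and 113 to 138 CPM in Chat-, with Mef2b at 0 in at least 1 library. Most of that sum was Bcl6, with 72.5 to 120.8 CPM in Chat+ and 99.9 to 125.5 CPM in Chat-.

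With all libraries in, the summed markers of cells outside the B lineage overlapped between the groups. Erythroid markers (9 of 9 listed) summed to 563 to 927 CPM in Chat+ and 486 to 1138 CPM in Chat-. Neutrophil and precursor markers (10 of 10 listed) summed to 21.8 to 140.5 CPM and 46.1 to 115 CPM, with Elane, Prtn3, Ctsg, Camp and Lcn2 at 0 in at least 1 library. T and NK cell markers (2 of 10 listed, Lck and Cd4, the latter at 0 in at least 1 library) summed to 13.5 to 25.1 CPM and 16.5 to 31.1 CPM. Nearly all of that was Lck (13.1 to 25.0 CPM and 16.5 to 30.4 CPM). Monocyte and macrophage markers (10 of 10 listed) summed to 61.9 to 112 CPM in Chat+ and 44.9 to 223 CPM in Chat-, and stromal and endothelial markers (10 of 10 listed, with Lepr at 0 in at least 1 library) to 286 to 416 CPM and 301 to 569 CPM. Pecam1 alone gave 247 to 261 CPM of the stromal and endothelial sum in Chat+ and 177 to 284 CPM in Chat-. That sum therefore says little about the other markers of its list. Chat- replicate 4, the library lowest in replication genes, had the highest sum of both the monocyte and macrophage and the stromal and endothelial list. Without it the Chat- sums ended at 64.9 CPM for the monocyte and macrophage and at 323 CPM for the stromal and endothelial markers. The median difference of the monocyte and macrophage markers was then 0.63 (all genes -0.0017), with 5 of 10 higher in Chat+ at an unadjusted p under 0.05 (against 5.36% of all genes). These were C1qb, Adgre1, C1qc, C1qa and Lyz2. Vcam1 of the same list was lower in Chat+, with a difference of -0.50. With all libraries in, 0 of the 10 were higher at an unadjusted p under 0.05 and 1 was lower. That was Vcam1 (difference -0.59, limma unadjusted p = 0.044). The stromal and endothelial markers without Chat- replicate 4 had a median difference of 1.22, with 4 of 10 higher at an unadjusted p under 0.05 (Sparc, Col3a1, Col1a1 and Col1a2). The part of these cells in the replication gene levels was not tested.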

How the data were processed

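RNA from mature Chat+ and Chat- B cells was sequenced with a strand-specific kit, per the labels' protocols. The submitters' processing notes name cutadapt 2.6, Salmon 0.14.2 and GRCm38.p6; for annotation, strand setting and the step to CPM no source used here gives details. The values the authors deposited are log2 values: with the shared offset of 0.1148 CPM removed they sum to 1000000 CPM per library, with no further scaling. Depth was estimated from the commonest value within a preset window of low CPM values, taken as 1 read. In each library 9 to 29 genes held that value. The window bounds the estimate, so it cannot show that depth was alike. Within 0.01 reads, 38.5% to 52.1% of values under 3 CPM were whole, so count tests were not used.

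The 45 genes, their roles and the other lists were chosen with earlier results of these data known. limma 3.58.1 (R 4.3.3) was fitted to all 14450 genes with a mean-variance trend and a group term alone; p-values are two-sided and Benjamini-Hochberg adjusted (threshold 0.05). The offset shrinks log2 differences of low genes, but a library listed at 0 can enlarge them. Without Chat- replicate 4, listed at 0 for both genes, the difference of Cdc6 went from 1.58 to 0.55 and that of Gins2 from 1.01 to 0.08. Per-library values are given for the 2 genes of each role with the smallest p, for genes below 0 and for E2f2 and Rpa1, chosen after their values were seen, as were other genes with values. Of each other list the 3 genes with the smallest p are named. Symbols were matched for 14374 identifiers, and locations, exon lengths and overlaps came from GENCODE M21 (GRCm38). Promoter bases 11 to 40 after the start were found in a transcript of the same gene for 32 of 43 promoters. Alternatives were no trend, library quality weights, median-of-ratios scaling, log2(CPM + 1), a mean of at least 1 CPM, the replicate number as a block and leaving out libraries; leaving out Chat+ replicate 5 with Chat- replicate 4 was chosen after seeing the data. Python 3.11.15 was used for tables.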

Additional observations from a re-analysis of the deposited data

Results flagged for a closer look

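In 17 of the 90 sets of 5 libraries (45 genes in 2 groups), 1 library lay far from the other 4 by Dixon's criterion at 95%. A single set meets it by chance about 1 time in 20, but these sets share the same 10 libraries. The share of sets over all genes that meet it was not computed. Chat- replicate 4 was the lowest Chat- library for 45.1% of all genes with a single lowest library. Of the 17 sets, 11 concerned Chat- replicate 4, always as the lowest library. Among the helicase and licensing genes these were Cdc6 (listed at 0, others 3.49 to 4.79 CPM), Mcm3 (36.5 CPM, others 58.3 to 66.9 CPM), Mcm5 (38.6 CPM, others 66.3 to 76.6 CPM), Gins1 (0.372 CPM, others 4.16 to 5.88 CPM) and Gins2 (listed at 0, others 1.62 to 3.76 CPM). Among the copying and entry genes they were Prim2 (5.8 CPM, others 12 to 13 CPM), Rfc1 (75.9 CPM, others 112 to 131 CPM), Rpa1 (96 CPM, others 162 to 180 CPM), Rpa2 (22 CPM, others 37.3 to 46 CPM), E2f1 (7.57 CPM, others 10.1 to 10.8 CPM) and E2f2 (48.3 CPM, others 118 to 140 CPM). The same library had 11.9% of its CPM in mitochondrial transcripts; the part of this in the low values was not tested.

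Chat+ replicate 5 was the lone low library for 5 genes, Mcm7 (65.1 CPM, others 81.7 to 87.8 CPM), Cdc45 (5.08 CPM, others 8.59 to 8.96 CPM), Pola2 (28.5 CPM, others 39.6 to 42.6 CPM), Lig1 (27.9 CPM, others 43.9 to 52.5 CPM) and Slbp (76.6 CPM, others 96.5 to 104 CPM). The last of the 17 was Prim2 in Chat+ replicate 1, the 1 case of a high library, at 15.2 CPM against 12.3 to 13.1 CPM in the other Chat+ libraries.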

How the results depend on the processing

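Of 810 refits of single genes (45 genes under 18 alternatives), 764 kept direction and side of the threshold, 42 changed sign and 4 gained a call. With quality weights 105 genes passed, 2 of them replication genes (Rrm2, adjusted p = 0.0040, and Uhrf1, 0.0495). Without the trend 3 genes passed, and under the replicate block 6, none of them a replication gene in either case. At an unadjusted p under 0.05, 8 and 11 replication genes were higher, and the shares of all genes in these fits are not given. Whether equal numbers mark paired samples is not given in the labels and could not be decided from the values. Own-number correlations were weak (-0.21 to 0.27), yet 3 of 5 were best with their own number. The replicate block is therefore given as an alternative only. With the replicate block and without Chat- replicate 4, 82 genes passed, 1 of them Rrm2. Without Chat+ replicate 5 and Chat- replicate 4, 29 passed, 1 of them Rrm2. Of the replication genes, 16 were then higher at an unadjusted p under 0.05 (against 5.59% of all genes) and 8 were separated (share of all genes not given).

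Shares over all genes also moved between fits. At an unadjusted p under 0.05, 3.49% of all genes were higher with all libraries and 5.36% without Chat- replicate 4. The shares with separated groups were 1.12% and 2.35%. For the other fits without 1 library these shares are not given, so the counts that follow are not set against all genes. Leaving out 1 library gave 1 to 6 genes called, 0 replication genes called, 6 to 14 higher at an unadjusted p under 0.05 (14 without Chat+ replicate 5), 4 to 7 separated (7 without Chat+ replicate 5) and a median difference of 0.13 (without Chat- replicate 4) to 0.29. Over these and the fit without both libraries, differences that changed sign ranged from -0.15 to 0.52 (Ccne2), -0.21 to 0.17 (E2f2), -0.17 to 0.75 (Gins1), -0.013 to 0.36 (Gins3), -0.065 to 0.18 (Mcm3), -0.048 to 0.21 (Mcm5), -0.37 to 0.61 (Orc1), -0.14 to 0.13 (Pold1), -0.10 to 0.094 (Rfc1), -0.022 to 0.12 (Rfc2) and -0.14 to 0.093 (Rpa1). With quality weights, Rfc1 (-0.074), Rfc2 (-0.056), Rfc3 (-0.039), Rpa1 (-0.13) and E2f2 (-0.15) changed sign. With median-of-ratios scaling Orc1 (-0.0052), Rfc1 (-0.011) and Rpa1 (-0.011) did. With the replicate block without Chat- replicate 4, Mcm3 (-0.069), Mcm5 (-0.067), Gins1 (-0.27), Gins4 (-0.039), Rfc1 (-0.14), Rfc2 (-0.0019), Rpa1 (-0.12) and E2f2 (-0.20) did. Without both libraries, Pold1 (0.015), Rfc1 (-0.043), Rpa1 (-0.14) and E2f2 (-0.15) did. The causes were not tested.

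Genes under about 1 CPM (Orc1) rest on few reads. Reads of Chaf1a, Gins2 and Fen1 can be told from opposite-strand neighbours only if strand was used in counting, which the sources used here do not state.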
